A study of Mus musculus with 12 samples.

Results

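The acylation of glycerol 3-phosphate, by which the liver starts to build triglycerides and phospholipids, was followed through the transcripts of 9 enzyme genes. They are the 4 glycerophosphate acyltransferase genes Gpam, Gpat2, Gpat3 and Gpat4 and the 5 lysophosphatidate acyltransferase genes Agpat1 to Agpat5. They were chosen by name, each being read by 1 row of the array that carries its symbol alone, and all 9 were measured among 19938 genes. Livers came from male C57BL/6J mice that had received an adenovirus through the tail vein, encoding either GFP, the control protein, or ChREBP, the glucose-responsive transcription factor whose gene is Mlxipl. Each group held 6 mice, labelled as biological replicates, with 1 array per mouse, and the animals, labelled as 8 weeks old, were studied fed, 3 weeks after injection. Both groups therefore carried an adenovirus, and no uninjected mice were analysed here. Which species and isoform of ChREBP the virus carried is not given in the sources used here.

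In the first step a glycerophosphate acyltransferase joins a fatty acid from acyl-CoA to glycerol 3-phosphate and makes lysophosphatidate. A lysophosphatidate acyltransferase then adds another fatty acid and makes phosphatidate, the branch point from which lipins lead to diacylglycerol and triglyceride and CDP-diacylglycerol synthases lead to cardiolipin and phosphatidylinositol. Gpam encodes the isoform of the outer mitochondrial membrane, long known in liver as a gene switched on by feeding, insulin and SREBP-1c. Gpat3 and Gpat4 encode isoforms of the endoplasmic reticulum, and the product of Gpat2, found mainly in testis, is mitochondrial.

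In ChREBP livers 5 of the 9 transcripts rose and 1 fell. Gpam rose 1.49-fold and Gpat3 1.46-fold, Agpat1 rose 1.30-fold, and the smaller rises of Agpat2 (1.19-fold) and Agpat3 (1.10-fold) were close to the threshold. Agpat5 fell to 0.861 of its GFP level, while Gpat2, Gpat4 and Agpat4 did not pass. Genes were called at an adjusted p under 0.05 by limma, with Benjamini-Hochberg adjustment over all 19938 genes, of which 27.0% passed, 13.3% as higher and 13.7% as lower. The median difference, ChREBP minus GFP on the log2 scale, was 0.14 over the 9 genes and -0.04 over all genes.

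Values are RMA values on the log2 scale, on which array medians lay between 5.96 and 6.05. Mlxipl itself ran from 9.07 to 9.61 in GFP livers, with a median of 9.27, and from 10.74 to 10.96 in ChREBP livers, with a median of 10.93. All 6 ChREBP arrays were thus above every GFP array, and the limma difference was 1.57 (SE 0.09, adjusted p = 2.86e-08). Whether the probes read the viral transcript, the mouse one or both was not tested. Liver markers were abundant on every array, the summed level of 8 hepatocyte markers being 15.83 to 15.94 on GFP arrays and 15.65 to 15.76 on ChREBP arrays, and 6 of the 8 were lower in ChREBP livers. Because whole liver was read, fewer cells of a type and less RNA per cell cannot be told apart. Markers of recruited macrophages differed strongly between groups, with 6 of 7 higher and a summed level of 11.05 to 11.39 on ChREBP arrays against 9.43 to 9.66 on GFP arrays. The remaining marker, Trem2, went the other way by -0.10, with all 6 ChREBP arrays below every GFP array, and did not pass (limma adjusted p = 0.0876). Mmp12 was the brightest of the 7 on ChREBP arrays, at 9.85 to 10.18 against 5.90 to 6.92 on GFP arrays, and weighs most in that sum. Arrays ChREBP 4 and ChREBP 5 carried high pancreatic acinar transcripts, with a summed level over 6 markers of 14.69 and 14.49, against at most 9.81 on the other 10 arrays, and GFP 4, GFP 6 and ChREBP 6 carried the highest Adipoq, the adipocyte hormone gene, at 8.52, 8.32 and 9.02. Adipoq was also raised on ChREBP 5 (7.25), ChREBP 4 (6.97) and GFP 2 (6.54), against at most 5.32 on the remaining arrays. T and NK cell (5 of 6 higher) and dividing cell markers (4 of 4 higher) also rose, Kupffer cell markers went both ways (2 higher and 4 lower of 6), and 0 or 1 gene per list rose, and 0 or 1 fell, among stellate, endothelial, bile duct, B cell, neutrophil, acinar and adipocyte markers. The part of these cells in the members' values was not tested. Each member was therefore also compared without ChREBP 4 and ChREBP 5, and without GFP 4, GFP 6 and ChREBP 6. The latter comparison keeps the other arrays with raised Adipoq.

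For Gpam, Gpat3 and Agpat1, the 3 genes whose groups did not overlap, sequences are shown in the sense of transcription. Each is the 250 bases that precede a RefSeq start on GRCm38.p6, and not every start of a gene is covered. Capitals mark 3 short motifs searched on both strands. One is CACCCCAC, the core of a sterol response element, which SREBP proteins bind. Another is the CCAAT box, which reads ATTGG on the opposite strand. The last is the GC box, GGGCGG, whose complement reads CCGCCC in the sense given here. Of 32851 such windows 2.58% hold CACCCCAC, 33.8% hold CCAAT and 32.7% hold GGGCGG. Gpam has a pair of windows, both on the minus strand of chromosome 19. Agpat1 also has a pair, of which the outer, the one farther upstream, is shown. The RefSeq spans of Gpat3 (from 100845665), Agpat1 (from 34604195) and Gpam (to 55127319) reach farther upstream than the starts used. Windows before those ends were not analysed here.
Gpam, chr19:55127239-55127488: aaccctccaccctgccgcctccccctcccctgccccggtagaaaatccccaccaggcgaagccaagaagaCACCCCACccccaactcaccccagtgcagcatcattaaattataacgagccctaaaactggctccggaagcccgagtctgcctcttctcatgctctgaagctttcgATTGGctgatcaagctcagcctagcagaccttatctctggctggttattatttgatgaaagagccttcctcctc
Gpam, chr19:55099478-55099727: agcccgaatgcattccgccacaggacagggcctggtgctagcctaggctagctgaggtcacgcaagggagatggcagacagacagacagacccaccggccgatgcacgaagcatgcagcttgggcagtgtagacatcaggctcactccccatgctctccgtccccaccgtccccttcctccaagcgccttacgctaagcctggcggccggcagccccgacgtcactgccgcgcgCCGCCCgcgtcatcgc
Gpat3, chr5:100845979-100846228, plus strand: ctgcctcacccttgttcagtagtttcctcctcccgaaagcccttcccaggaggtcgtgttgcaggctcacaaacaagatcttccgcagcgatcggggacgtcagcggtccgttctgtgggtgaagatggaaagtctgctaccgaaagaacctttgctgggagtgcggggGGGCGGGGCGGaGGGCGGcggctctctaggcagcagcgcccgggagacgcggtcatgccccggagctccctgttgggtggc
Agpat1, chr17:34605611-34605860, plus strand: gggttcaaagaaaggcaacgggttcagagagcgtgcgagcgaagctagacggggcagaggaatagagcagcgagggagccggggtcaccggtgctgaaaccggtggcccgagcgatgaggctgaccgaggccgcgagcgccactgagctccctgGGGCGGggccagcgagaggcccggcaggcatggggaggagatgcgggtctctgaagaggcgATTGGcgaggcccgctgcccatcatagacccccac

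The outer Gpam window holds CACCCCAC starting 180 bases before the start site and ATTGG starting 74 bases before it. It is the only one of 9 windows, from 7 member genes, that holds CACCCCAC. In the Gpat3 window 3 copies of GGGCGG start 81, 76 and 69 bases before the start site, the first overlapping the next by 1 base. The outer Agpat1 window holds GGGCGG 96 bases and ATTGG 35 bases before the start, and the inner one, at chr17:34608764-34609013, holds CCGCCC 15 bases before its start. The inner Gpam window holds CCGCCC 16 bases before the start. Over the 9 windows 4 hold the CCAAT box and 5 the GC box. The E-box CACGTG, present in 6.02% of all windows, and the carbohydrate response element (ChoRE), the paired E-box motif of ChREBP present in 0.0974%, were found in 0 of the 9 windows. That says only that these letters are not in the 250 bases before these starts. The spans of Gpat2, Agpat3 and Agpat4 also reach farther upstream than the starts used, and no window before those ends was analysed. Windows of Gpat4 and Agpat5 were not analysed here.

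Among the glycerophosphate acyltransferases, Gpam separated the groups. It ran from 9.24 through a median of 9.45 to 9.55 on GFP arrays and from 9.82 through 10.02 to 10.16 on ChREBP arrays. Every ChREBP array lay above every GFP array. The difference was 0.57 (SE 0.07, limma adjusted p = 5.67e-05). The lowest ChREBP arrays for Gpam were ChREBP 5 (9.82) and ChREBP 4 (9.86), the 2 arrays with high acinar transcripts. Without them the difference was 0.66. Leaving out the lowest ChREBP values can only raise it, so the part of acinar tissue in the values of Gpam was not tested.

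Gpat3, an isoform that adipocytes make in quantity, rose to a like extent. GFP arrays ran from 6.87 through a median of 7.13 to 7.39, and ChREBP arrays from 7.51 through 7.70 to 7.83. The groups did not overlap, and the difference was 0.54 (SE 0.08, limma adjusted p = 0.000193). The highest GFP array, GFP 6, was also one of those with high Adipoq. Without GFP 4, GFP 6 and ChREBP 6 the difference in Gpat3 was 0.60, although that comparison keeps ChREBP 5, ChREBP 4 and GFP 2, where Adipoq was also raised. Of 5 measured adipocyte markers 1 rose, Fabp4, a fatty acid-binding protein that macrophages also make, by 1.37 without overlap of the groups (limma adjusted p = 0.00141), 1 fell, Plin1, by 0.22, and Adipoq had a difference of -0.04. The summed adipocyte level was 9.11 to 10.73 on GFP arrays and 10.40 to 11.06 on ChREBP arrays. It largely reads Fabp4, which alone was 8.30 to 10.10 on GFP arrays and 10.15 to 10.46 on ChREBP arrays. The part of adipocytes in the rise of Gpat3 was not tested.

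Gpat4, the other isoform of the endoplasmic reticulum, ran from 9.80 through 9.85 to 9.92 on GFP arrays and from 9.68 through 9.80 to 9.84 on ChREBP arrays. The groups overlapped, with 3 ChREBP arrays below the lowest GFP array. The difference of -0.08 had a 95% interval from -0.18 to 0.01 and did not pass (limma adjusted p = 0.179). That interval lies below the intervals of Gpam (0.41 to 0.73) and Gpat3 (0.37 to 0.72). Within each array, Gpam minus Gpat4 ran from -0.59 to -0.37 in GFP livers and from 0.03 to 0.44 in ChREBP livers. This difference compares change only, since levels read by different probes have no common zero. For Gpam minus Gpat3, a pair that rose alike, the mean was 2.30 in the GFP group (SD 0.13, 6 arrays) and 2.33 in the ChREBP group (SD 0.22, 6 arrays). These within-array pairs were chosen after the values were seen and carry no test.

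Gpat2 was dim on all arrays, its mean level lying at percentile 28.0 of all genes, next to Agpat4 at 28.6. It ran from 5.32 through 5.40 to 5.67 in GFP livers and from 4.87 through 5.25 to 5.47 in ChREBP livers. The groups overlapped, although 4 ChREBP arrays lay below the lowest GFP array. The difference of -0.22 did not pass (95% interval -0.41 to -0.02, limma adjusted p = 0.0945), but it did so without ChREBP 2 (-0.27, adjusted p = 0.0409). The germ cell markers measured beside it, 5 genes including Ddx4 and Dazl, had 0 members that passed by limma, and 3 had an unadjusted p under 0.05. All 5 differences were negative like that of Gpat2, from -0.13 to -0.05. These markers were also dim, at percentiles 4.2 to 23.5 of all genes.

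**Figure D1:**
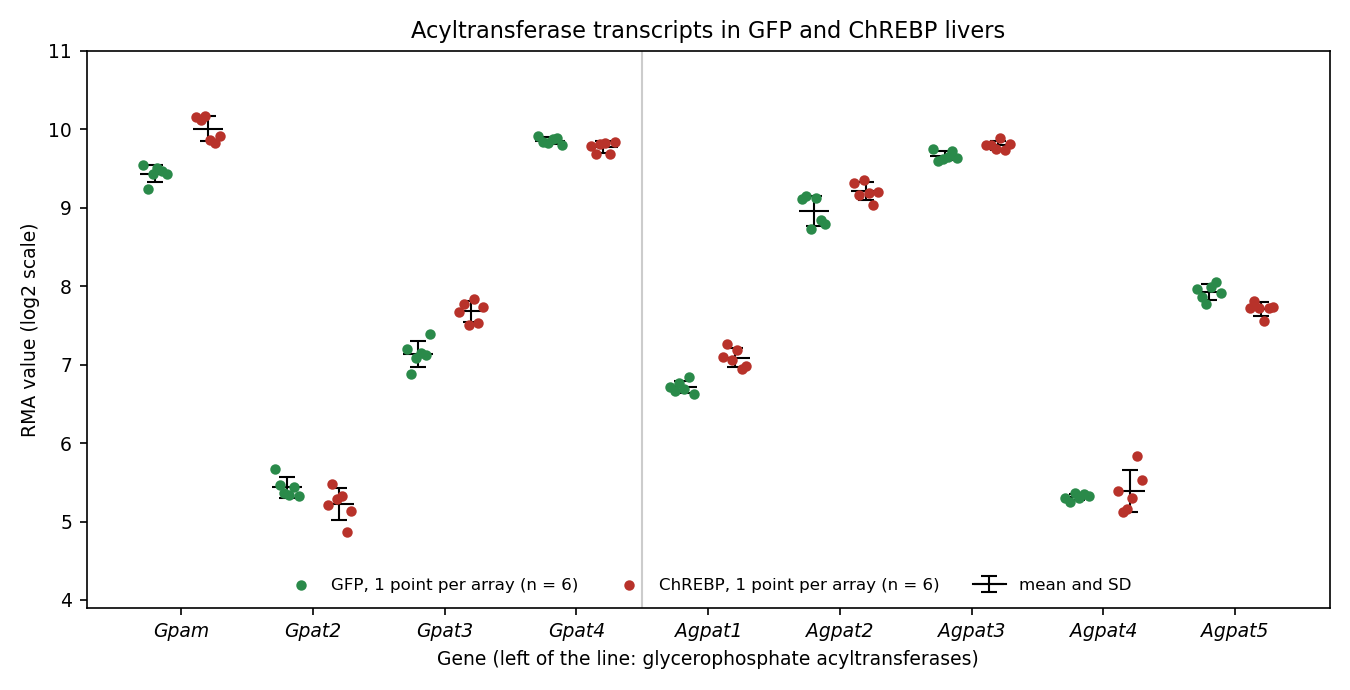
RMA values (log2 scale, y axis) of the 9 acyltransferase transcripts (x axis), with 1 point per array for 6 GFP livers (green) and 6 ChREBP livers (red) where black bars give each mean with its SD. The red points of Gpam, Gpat3 and Agpat1 all sit above the green ones, those of the other 6 genes overlap, and heights of different genes are not comparable.

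Among the lysophosphatidate acyltransferases, 3 of 5 rose and 1 fell, against 13.3% and 13.7% of all genes. Agpat1, a widely expressed isoform of the endoplasmic reticulum, ran from 6.62 through 6.70 to 6.84 on GFP arrays and from 6.94 through 7.08 to 7.26 on ChREBP arrays. The groups did not overlap, and the difference was 0.37 (SE 0.06, limma adjusted p = 0.000348). With Gpam and Gpat3, Agpat1 makes 3 of 9 members whose groups were apart, against 15.2% of all genes. Over the 12 arrays, with each group's mean subtracted, Agpat1 correlated with the summed level of recruited macrophage markers at 0.71 and of Kupffer cell markers at 0.72, the highest values for this gene over the marker lists examined and a description only. Gpat2, which did not pass, correlated with the same 2 sums at 0.62 and 0.66, so such values are not particular to a gene that rose. The part of macrophages in the rise of Agpat1 was not tested.

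Agpat2, whose loss causes generalized lipodystrophy in humans, ran from 8.72 through 8.98 to 9.15 in GFP livers and from 9.04 through 9.19 to 9.35 in ChREBP livers. On 5 of 6 ChREBP arrays it lay above every GFP array, and the exception was ChREBP 5. GFP values fell into a higher trio, GFP 1, GFP 2 and GFP 4 (9.11, 9.15 and 9.13), and a lower trio, GFP 3, GFP 5 and GFP 6 (8.72, 8.85 and 8.79). The difference was 0.25 (SE 0.08, limma adjusted p = 0.0405). With 1 array left out at a time the call was lost for 8 of the 12 arrays, namely for ChREBP 6, 4, 3, 2 and 1 and for GFP 6, 5 and 3, with differences of 0.20 to 0.26 and adjusted p from 0.0528 to 0.0890.

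Agpat3, whose product works in the endoplasmic reticulum and Golgi and favours polyunsaturated fatty acids, ran from 9.60 through 9.64 to 9.75 in GFP livers and from 9.73 through 9.80 to 9.89 in ChREBP livers. On 4 of 6 ChREBP arrays it lay above every GFP array. The difference was 0.14 (SE 0.04, limma adjusted p = 0.0332). Here too the call was lost for 8 of the 12 arrays left out in turn, namely for ChREBP 6, 4, 2 and 1 and for GFP 6, 4, 3 and 2, with differences of 0.12 to 0.13 and adjusted p from 0.0565 to 0.0658. With each array centred on its median, Agpat2 (adjusted p = 0.0714) and Agpat3 (adjusted p = 0.0855) both missed the threshold, so that 3 members remained higher.

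Agpat5, which encodes a mitochondrial isoform, was lower. GFP arrays ran from 7.78 through 7.93 to 8.05 and ChREBP arrays from 7.55 through 7.72 to 7.81, with 5 of 6 ChREBP arrays below every GFP array. ChREBP 2, at 7.81, overlapped GFP 3, at 7.78. The difference was -0.22 (SE 0.06, limma adjusted p = 0.0105). Agpat1 minus Agpat5 within each array averaged -1.21 in the GFP group and -0.62 in the ChREBP group, and the groups did not overlap. That pair, too, was chosen after the values were seen. It joins a gene that rose to one that fell, so its separation follows from the choice and is no further result. The call of Agpat5 held without ChREBP 4 and ChREBP 5 (-0.18, adjusted p = 0.0416) but not without GFP 4, GFP 6 and ChREBP 6 (-0.21, adjusted p = 0.0646), which leaves 9 arrays.

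Agpat4, best known from brain, was dim. GFP arrays lay close together, from 5.25 through 5.31 to 5.36, while ChREBP arrays spread from 5.13 through 5.34 to 5.83, on both sides of the GFP range. The highest, ChREBP 5, set the sign of the difference, which was 0.08 (95% interval -0.14 to 0.29, limma adjusted p = 0.591) over all arrays and -0.01 without it. ChREBP 5 was also the highest of the 12 arrays in the summed markers of B cells (7.73, next 7.10), neutrophils (10.18, next 9.11), T and NK cells (10.12, next 9.60), endothelial cells (11.53, next 11.10) and bile duct cells (9.60, next 9.09). Single markers of these lists went both ways. The endothelial genes Stab2 (7.60) and Clec4g (8.59) and the bile duct gene Sox9 (7.74) were at their lowest of the 12 arrays on ChREBP 5. Other markers, among them Cd3e, Cd8a, Cd79a, Ly6g and Camp, were not highest there. With group means subtracted, Agpat4 correlated with these 5 lists at 0.61 to 0.74 over the 12 arrays, a description that includes ChREBP 5, and the part of these cells in its spread was not tested.

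**Figure D2:**
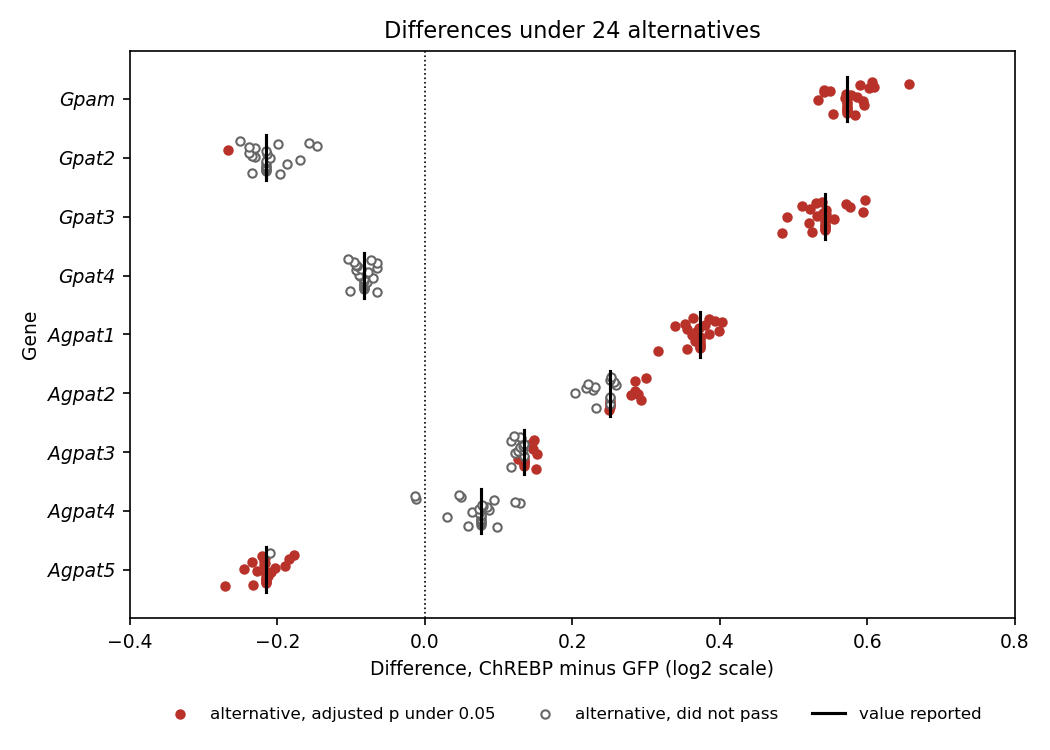
Difference of each acyltransferase transcript (ChREBP minus GFP, log2 scale, x axis) for the 9 genes (y axis) under 24 alternative analyses, each a point (filled: adjusted p under 0.05), with a black line at the value reported. Gpam, Gpat3 and Agpat1 passed in all 24, Agpat5 in 23, Agpat3 in 12 and Agpat2 in 11, while Gpat4 and Agpat4 passed in 0 and Gpat2 in 1.

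With the group means taken out, some pairs of members varied together and others did not. Over the 36 pairs of members and 12 arrays the correlation ran from -0.83 for Gpat2 with Agpat4, both dim, to 0.69 for Gpat2 with Agpat1, with 0.60 for Gpat4 with Agpat3, -0.60 for Agpat1 with Agpat4 and 0.19 for Gpam with Gpat3. Over the same arrays without that subtraction, the genes most like Gpam among all genes were Wdr44 (r = 0.98), Trim30d (0.98) and the acyl-CoA synthetase gene Acsl5 (0.98). Those most like Gpat3 were the aldolase gene Aldoa (0.97), the actin-capping gene Capg (0.96) and the creatine transporter gene Slc6a8 (0.95), and those most like Agpat2 were Ppp2r5a (0.95), Ttc13 (0.92) and Riok1 (0.90). With group means subtracted other genes led, namely Cmas, Slc35b1 and Tcaim for Gpam (0.96, 0.95 and 0.93), Rtl6, Gcnt7 and Cdcp2 for Gpat3 (0.92, 0.91 and 0.90), and Slc39a12, 4933404G15Rik and Tars for Agpat2 (0.94, 0.91 and 0.91). These correlations describe 12 arrays that share their group contrast, and carry no test.

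The steps that feed the acyltransferases were higher in part. Of 6 measured genes for supply of glycerol 3-phosphate and acyl-CoA (median difference 0.14, log2 scale) 3 rose, among them the cytosolic glycerol 3-phosphate dehydrogenase gene Gpd1 by 1.49 and its mitochondrial counterpart Gpd2 by 0.53, with Acsl5 by 0.24. Acsl6 fell by 0.23, and Gpd1l (0.03) and Acsl4 (-0.10) did not pass. Over all genes 13.3% were called higher and 13.7% lower. Gk, Acsl1 and Acsl3 were not analysed here.

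Beyond phosphatidate, the route to triglyceride moved both ways, with 3 of 8 genes higher, 3 lower and a median difference of 0.02 on the log2 scale. The shares over all genes were 13.3% higher and 13.7% lower. The acyltransferase genes Mogat1 and Dgat1, which make diacylglycerol from monoacylglycerol and triglyceride from diacylglycerol, rose by 2.72 and 1.19. Bscl2, which encodes seipin, the droplet assembly protein that binds AGPAT2 and lipin, rose by 0.24. The phosphatidate phosphatase genes Lpin2 and Lpin3 fell by 0.31 and 0.19, and Dgat2 fell by 0.21. Lpin1, the third lipin gene, had a difference of -0.15 with a wide interval from -0.62 to 0.33, and Mogat2 (0.18) did not pass. The rises of Mogat1 and Dgat1 were larger than that of any member, their 95% intervals starting at 2.46 and 1.01 against an upper end of 0.73 for Gpam. The call of Lpin3 held in 13 of 24 alternatives.

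The route to cardiolipin held 3 of 7 genes that rose and 0 that fell, with a median difference of 0.12 on the log2 scale. Beside this, 13.3% of all genes rose and 13.7% fell. The 3 calls are few. The cardiolipin genes that rose were Pgs1 (0.32), Crls1 for cardiolipin synthase (0.24) and the phosphatase gene Ptpmt1 (0.12). Of these, Crls1 passed in 13 and Ptpmt1 in 11 of 24 alternatives. The CDP-diacylglycerol synthase genes Cds1 (0.06) and Cds2 (0.06), Tamm41 (0.25) and the tafazzin gene Taz (0.02) did not pass.

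Among 9 other lysophospholipid acyltransferases, which remodel finished phospholipids, 2 rose and 1 fell (median difference 0.15, log2 scale). With 13.3% of all genes higher and 13.7% lower, these counts are not read as a result about the group. Lpcat3, which places polyunsaturated fatty acids in phosphatidylcholine, rose by 0.60, and Lpcat2, an isoform of inflammatory cells, rose by 0.58, while Lpgat1 fell by 0.26. Of 7 recruited macrophage markers, 6 were also higher in these livers, as given above. The part of those cells in the change of Lpcat2 was not tested. The others, Lpcat1 (0.42), Mboat1 (0.33), Lpcat4 (0.15), Lclat1 (-0.04), Mboat2 (-0.06) and Mboat7 (-0.07), did not pass. In the ether lipid branch, which starts with acylation of dihydroxyacetone phosphate by the product of Gnpat, none of 4 genes passed (Far1 0.25, Agps 0.19, Gnpat 0.14 and Far2 0.13 by limma), and 2 of them, Gnpat and Agps, had an unadjusted p under 0.05. None of 4 Plpp phosphatase genes, which break down phosphatidate and lysophosphatidate, passed by limma (-0.12 to 0.19), and 1, Plpp2, had an unadjusted p under 0.05. Since 27.0% of all genes passed, lists of 4 genes with none passing say little.

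**Figure D3:**
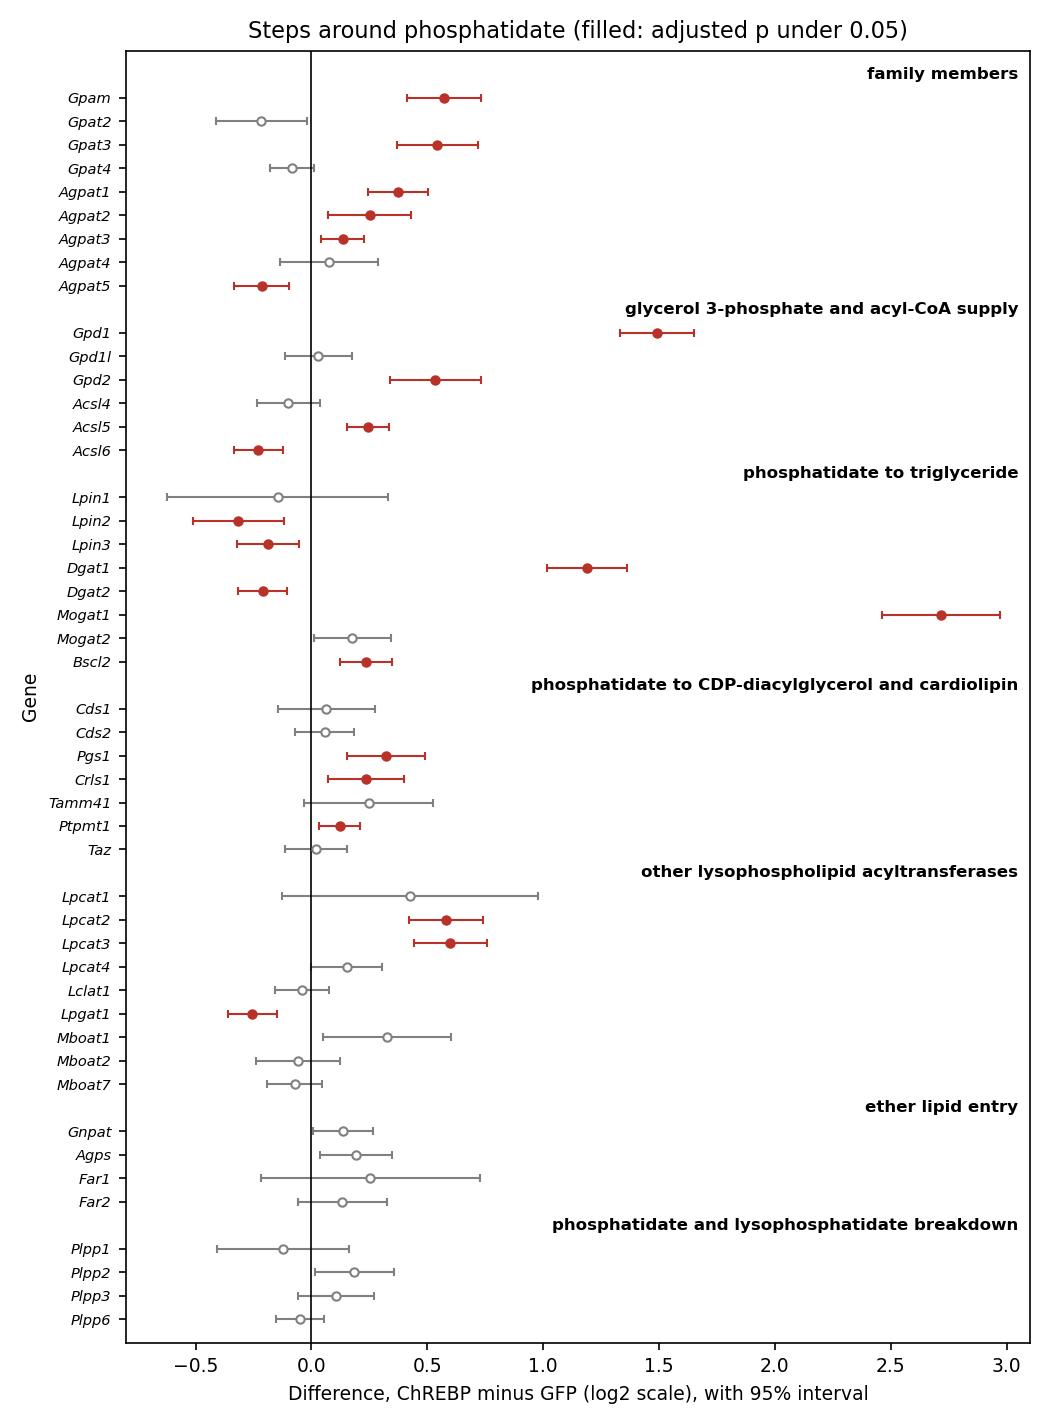
Difference (ChREBP minus GFP, log2 scale, x axis) of the acyltransferases and of genes for the steps around phosphatidate (y axis), grouped by step, with bars for the 95% interval and filled points for an adjusted p under 0.05. Mogat1 (2.72), Gpd1 (1.49) and Dgat1 (1.19) lie farthest to the right, beyond all 9 acyltransferases.

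Of the transcription factor genes known to act on these enzymes, 2 of 6 rose, Mlxipl by 1.57 and Pparg, a main regulator of fat storage, by 1.21. Mlxipl is the gene of the protein that the virus encodes, so its rise follows from the design and says nothing about regulators. Apart from it only Pparg rose, beside 13.3% of all genes higher and 13.7% lower. Srebf2 fell by 0.15, while Srebf1, whose product activates Gpam (0.04, 95% interval -0.14 to 0.21), Ppara (-0.00) and Nr1h3 for LXR alpha (-0.12) did not pass. The values of these gene groups are limma differences on the log2 scale, and Enpp2 and Nr1h2 were not analysed here.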

How the data were processed

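Liver RNA of 12 mice had been amplified, biotin-labelled with Nugen kits and hybridised by the authors to Affymetrix mouse gene arrays. The deposited values are log2 values, and for their making the submitters' notes list RMA and Partek, with no version given. RMA quantile-normalizes the arrays, so a shift shared by most genes would be removed, and it compresses changes of dim genes. The study's array methods describe another virus and array and guided only the choice of test. Detection calls were not used here, and the number of arrays limits the precision.

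Of 35556 rows, 21789 carried 1 gene symbol in the platform annotation, 1621 carried several and 12146 were not listed. Symbols were updated through Entrez IDs to RefSeq GRCm38.p6 (21698 matched). The brightest row stood for a gene, and each of the 9 members had 1 row. Groups were compared with limma 3.58.1 in R 4.3.3 (lmFit, eBayes, two-sided, no covariates). A marker list's summed level is the log2 of its summed linear values. The procedure was tested on simulated data in which 200 genes were changed. It recovered 44% of 1.2-fold and 92% of 1.5-fold changes, so small changes can be missed. Far more genes passed in the real data, which eases the adjusted threshold, so these shares do not carry over directly. Members, pathway and marker lists, and the arrays left out jointly, were chosen with earlier results of these data known. Named genes were all members, Mlxipl, the pathway genes that passed, those needed to complete a count, and the 3 genes most like Gpam, Gpat3 and Agpat2. The 24 alternatives changed the normalization, filter, row choice, moderation, weights, test, replicate block and arrays used. Promoter windows came from RefSeq, and 7 of 9 members matched.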

Additional observations from a re-analysis of the deposited data

Results flagged for a closer look

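Chance alone flags about 5% of groups in a search for 1 array far from the others, and 9 arrays were found in 106 groups of 6. Among the acyltransferases Agpat5 was flagged, which on ChREBP 4 stood at 7.55, below the next ChREBP value of 7.72. The phosphatidate phosphatase genes gave Lpin1 on GFP 3 at 9.26 (next 8.01) and Lpin2 on GFP 2 at 10.80 (next 11.24). ChREBP 5 stood apart in Lpcat1 at 8.90 (next 7.30), in Taz at 7.60 (next 7.71) and in Far1 at 8.05 (next 7.03). Far1 was also low on GFP 3, at 6.17 (next 6.78), Mboat2 was high on GFP 6, at 4.48 (next 4.03), and Gnpat was low on ChREBP 4, at 8.06 (next 8.29).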

How the results depend on the processing

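Gpam, Gpat3 and Agpat1 passed under all 24 alternatives, with differences of 0.53 to 0.66, 0.48 to 0.60 and 0.32 to 0.40, and Gpat4 under none. Agpat2 did not pass with median centring (0.23), with all rows tested (0.25), with the analysis of variance (0.25), with the replicate block (0.25) or without GFP 4, GFP 6 and ChREBP 6 (0.25). Agpat3 did not pass with median centring (0.12), the replicate block (0.14), without ChREBP 4 and ChREBP 5 (0.13) or without GFP 4, GFP 6 and ChREBP 6 (0.12), and Agpat5 failed in the last setting (-0.21). The number of members higher was then 3 with median centring, with the replicate block and without GFP 4, GFP 6 and ChREBP 6, where 0 were lower. With 1 array left out, 3 to 5 members were higher and 1 to 2 lower, and differences ran from 0.20 to 0.29 for Agpat2, 0.12 to 0.15 for Agpat3, -0.27 to -0.15 for Gpat2 and -0.012 to 0.13 for Agpat4, whose sign turned without ChREBP 5 (-0.012) and without ChREBP 4 and ChREBP 5 (-0.013). The cause of these differences between settings was not tested. Replicate numbers were not used as pairs in the reported values. Same-numbered arrays deviated together at correlations of -0.06 to 0.25, and 1 of 6 GFP arrays was most like its own number. The labels do not say whether the numbers pair mice, and these correlations cannot decide it. The replicate block left 4439 calls over all genes against 5375. Dim genes, such as Gpat2 and Agpat4, are read least well.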
